A study of Mus musculus with 18 samples.

Results

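Collagen is modified before it leaves the cell and crosslinked after it has left, and 10 genes for enzymes of both steps were followed here in cultured mouse tendon cells: the lysyl oxidases Lox, Loxl1, Loxl2, Loxl3 and Loxl4, the lysyl hydroxylases Plod1, Plod2 and Plod3, and the prolyl 4-hydroxylase subunits P4ha1 and P4ha2. They were taken by row name from a table of 14391 genes, and all 10 were present. The rule used names and no measured value, but the members were chosen with earlier results of these data known. The cells were wild-type (WT) fibroblasts from adult or neonatal tendon. Each age was measured in 3 conditions of 3 libraries, 18 in all: T cell media alone (here media), supernatant of stimulated adult T cells (adult supernatant) or of stimulated neonatal T cells (neonatal supernatant), each mixed with complete medium. Cells of 4 adult or 3 neonatal tendons had been pooled in each culture well, passaged and frozen, and the thawed cells grew for 3 days before they were treated. No source used here gives the mouse strain, the ages in days or the length of the treatment. Nor is it stated that the replicates are separate animals or separate cultures, so the p-values measure only the spread between these samples.

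Prolyl 4-hydroxylase, made of a catalytic alpha subunit (P4ha1, P4ha2 or P4ha3) and the protein disulfide isomerase P4hb, hydroxylates prolines in new collagen chains, which lets the triple helix hold at body temperature. Lysyl hydroxylases act on lysines of the same chains in the endoplasmic reticulum, and like the prolyl enzymes they need oxygen, iron, ascorbate and 2-oxoglutarate. Lysyl oxidases are copper-dependent amine oxidases that act mostly outside the cell on collagen and elastin, where the aldehydes they make condense into the crosslinks that give tendon its tensile strength. The pattern of hydroxylation, above all that made by Plod2 in the telopeptides at the chain ends, sets which crosslinks form.

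Promoter sequence is shown for the members whose windows were found, whatever their response to the supernatants. Windows of 5 of the 10 members came from the RefSeq promoter table (build GRCm38.p6, another build than the GRCm39 of the counts). No window was found for the other members. A chromosome was left out of that search, which need not account for every missing window, and the reason was not traced for each gene. The lack of a window says nothing of the promoters of these members. The 250 bases before the start of each follow, 5′ to 3′ on the gene's strand. Capitals mark ACGTG or GCGTG on either strand, the core letters bound by hypoxia-inducible factors and by other basic helix-loop-helix proteins.
P4ha1, chr10:59323046-59323295, plus strand: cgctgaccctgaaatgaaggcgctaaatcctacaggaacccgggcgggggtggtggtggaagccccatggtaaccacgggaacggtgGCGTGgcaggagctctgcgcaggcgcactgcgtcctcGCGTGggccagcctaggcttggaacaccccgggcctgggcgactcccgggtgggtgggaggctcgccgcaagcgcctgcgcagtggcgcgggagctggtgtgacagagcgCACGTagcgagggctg
P4ha2, chr11:54100674-54100923, plus strand: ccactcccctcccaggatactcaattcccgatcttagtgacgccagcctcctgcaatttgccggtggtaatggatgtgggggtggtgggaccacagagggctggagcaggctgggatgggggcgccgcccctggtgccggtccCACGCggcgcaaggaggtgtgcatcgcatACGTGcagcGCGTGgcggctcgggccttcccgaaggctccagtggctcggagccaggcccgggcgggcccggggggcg
Plod1, chr4:147936777-147937026, minus strand: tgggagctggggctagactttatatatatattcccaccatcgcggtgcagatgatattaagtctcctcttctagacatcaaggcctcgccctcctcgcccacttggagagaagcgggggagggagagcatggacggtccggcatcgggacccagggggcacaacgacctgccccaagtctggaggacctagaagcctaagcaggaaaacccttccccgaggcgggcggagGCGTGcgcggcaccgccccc
Plod3, chr5:136986769-136987018, plus strand: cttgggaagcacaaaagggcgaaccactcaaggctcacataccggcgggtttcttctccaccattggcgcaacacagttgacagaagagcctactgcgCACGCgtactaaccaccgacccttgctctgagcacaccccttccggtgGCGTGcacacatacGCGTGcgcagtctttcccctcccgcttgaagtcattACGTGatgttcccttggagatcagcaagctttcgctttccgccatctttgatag
Loxl4, chr19:42612807-42613056, minus strand: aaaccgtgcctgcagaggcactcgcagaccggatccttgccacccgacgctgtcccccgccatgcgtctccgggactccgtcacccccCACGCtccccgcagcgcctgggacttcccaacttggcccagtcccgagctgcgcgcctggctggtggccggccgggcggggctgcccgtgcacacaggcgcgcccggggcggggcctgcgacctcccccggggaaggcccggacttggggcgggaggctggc

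ACGTG was found in P4ha1 at -16, in P4ha2 at -78 and in Plod3 at -54, counted from the start with -1 as the last base before it and naming the first base of the match on the gene's strand. It was not in the window of Loxl4 or of Plod1. GCGTG was found in all 5 windows, 3 times in that of Plod3. Of all 32851 promoters of the table, 16.6% held ACGTG and 28.2% held GCGTG in the same window. TTCNNNGAA, the letters bound by STAT proteins, was in 7.0% of all promoters and had no match in the 5 windows. All motifs were searched on both strands, the matches did not overlap each other, and a match describes the letters only.

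The table gave log2 CPM, counts scaled to a common library total and put on a log2 scale. Total counts were not used here, so the depth of a library is unknown. Within groups, libraries correlated across genes at 0.958 to 0.982, and between groups at 0.825 to 0.966. The lowest value of any member in any library was 31.6 CPM, for Loxl4. A summed list of 7 tendon markers stood at 19618 to 22764 CPM in media, at 6120 to 9605 CPM with adult and at 13271 to 18260 CPM with neonatal supernatant, most of it Col1a1. Scx and Tnmd, which define tendon cells, were low in adult cells in media (15.9 ± 3.99 and 9.11 ± 1.13 CPM, SD, n = 3), and in neonatal cells in media they were 353 ± 33.7 and 15.5 ± 3.86 CPM. Mural cell markers (3 genes) summed to 181 to 323 CPM in media, 11.7 to 47.3 CPM with adult and 108 to 248 CPM with neonatal supernatant, and T cell markers (4 of 6 measured) to 2.06 to 4.49, 7.97 to 26.2 and 3.52 to 8.00 CPM. Chondrocyte markers (2 of 3 measured) summed to 27.2 to 41.2 CPM in media, 22.3 to 30.3 CPM with adult and 45.4 to 57.6 CPM with neonatal supernatant. Macrophage markers (5 genes) summed to 95.8 to 117 CPM in adult and 34.6 to 55.8 CPM in neonatal cells in media, and endothelial markers (3 genes) to 25.4 to 28.6 and 16.8 to 19.6 CPM. The part of these shifts in the results was not tested, and in bulk RNA fewer cells of a type cannot be told apart from less RNA per cell.

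**Figure D1:**
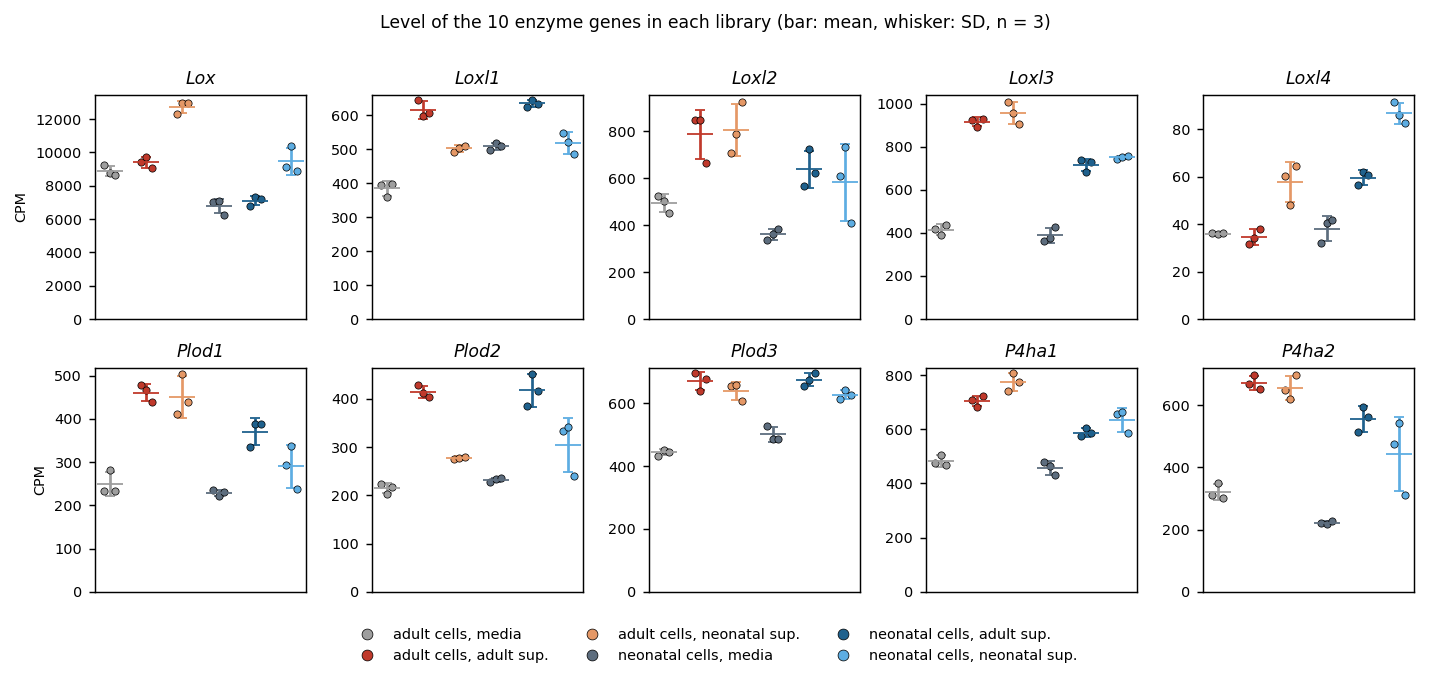
CPM of each enzyme gene in each of the 18 libraries (points), with the mean (bar) and SD (whisker) of each group of 3; each panel has its own axis from 0. Lox stood between 6271 and 12965 CPM and Loxl4 between 31.6 and 91.4 CPM.

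Most of the enzyme genes were higher with either supernatant in cells of both ages, and no enzyme gene was called lower than in media. With adult supernatant, 8 of the 10 rose in adult cells and 9 in neonatal cells; 28.2% and 28.3% of all genes were called higher in those comparisons, and 23.9% and 19.5% lower. With neonatal supernatant, all 10 rose in adult cells and 9 in neonatal cells, where 16.1% and 10.7% of all genes were called higher and 11.2% and 7.62% lower. The median log2 fold change of the 10 genes was 0.67 with adult supernatant in cells of either age, and 0.68 in adult and 0.48 in neonatal cells with neonatal supernatant. Over all genes the medians lay between 0.03 and 0.07. With adult supernatant, every library lay above every media library for 8 members in adult and 9 in neonatal cells. With neonatal supernatant this held for 10 and 9. Among all genes it held for 30.5% and 33.2% with adult and for 23.3% and 19.3% with neonatal supernatant. Wholly below media lay 27.1% and 24.0% of all genes with adult and 17.65% and 14.7% with neonatal supernatant. The comparisons of both supernatants share the media libraries of their age and are not independent. When all values were quantile normalised the share of higher among all called genes moved from 54.1 to 41.7% in adult cells and from 59.3 to 39.8% in neonatal cells with adult supernatant, and from 59.1 to 46.5% and from 58.5 to 48.4% with neonatal supernatant.

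**Figure D2:**
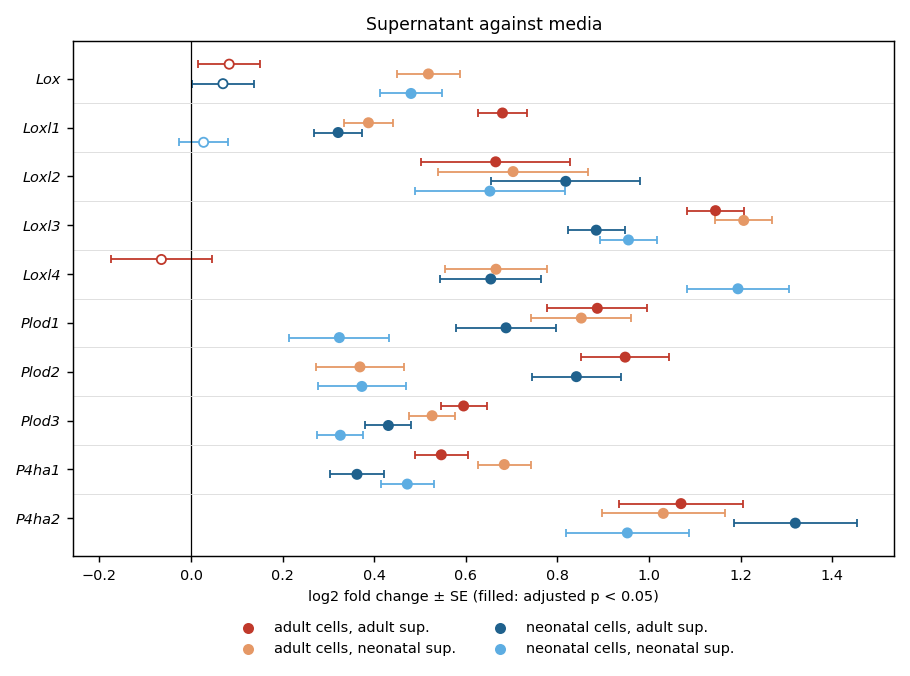
Log2 fold change of each enzyme gene against media of the same cell age, with its standard error (whisker), for the 4 comparisons; filled points have an adjusted p under 0.05. Lox with adult supernatant, Loxl4 in adult cells with adult supernatant and Loxl1 in neonatal cells with neonatal supernatant are the open points.

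Lox, the founding member of its family, had the highest mean of the 10 in every group, also per kilobase of transcript, and was called higher with neonatal and not with adult supernatant. It held 9219.8, 8787 and 8662 CPM in adult cells in media, 9449.8, 9731 and 9076 CPM with adult supernatant, and 12290, 12940 and 12965 CPM with neonatal supernatant. Cells of neonatal origin held 7002, 7055 and 6271 CPM in media, 6790, 7310.2 and 7215 CPM with adult supernatant, and 9111, 10366 and 8907 CPM with neonatal supernatant. At each age all 3 libraries with neonatal supernatant lay above the other 6, and the media and adult supernatant libraries overlapped. The log2 fold change with neonatal supernatant was 0.52 ± 0.07 (SE) in adult cells (adjusted p = 2.46e-05) and 0.48 ± 0.07 in neonatal cells (adjusted p = 7.54e-05). With adult supernatant it was 0.08 (95% interval -0.06 to 0.23, adjusted p = 0.324) and 0.07 (-0.07 to 0.21, adjusted p = 0.425). Set directly against adult supernatant, neonatal supernatant gave more Lox, by 0.43 ± 0.07 in adult cells (adjusted p = 0.000104) and by 0.41 ± 0.07 in neonatal cells (adjusted p = 0.00023).

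This split between the supernatants depended on the scaling. After quantile normalization Lox also rose with adult supernatant, by 0.75 in adult cells (adjusted p = 8.83e-07) and by 0.41 in neonatal cells (adjusted p = 0.000566), and the difference between the supernatants was 0.09 (adjusted p = 0.418) and 0.08 (adjusted p = 0.466). After trimmed-mean scaling the calls were as before. Lox took 0.677 to 1.27% of all CPM and ranked between the 3rd and 6th place by mean CPM in every group, where quantile normalization sets a value by its rank. In adult cells its rank was 5 in media and 3 with either supernatant.

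The other lysyl oxidases had patterns of their own. Loxl3, which oxidises collagen and elastin and has scavenger receptor domains, rose with both supernatants at both ages: 417, 389 and 438 CPM in adult cells in media against 926, 892 and 931 CPM with adult and 1009, 957 and 906 CPM with neonatal supernatant. The neonatal-cell values were 361, 377 and 427 CPM in media, 736, 682 and 727 CPM with adult supernatant and 744, 752 and 756 CPM with neonatal supernatant. No library with supernatant overlapped media. The log2 fold changes were 1.15, 1.21, 0.88 and 0.96, in the order adult cells with adult and neonatal supernatant, then neonatal cells likewise, each ± 0.06 (adjusted p at most 1.31e-08). Htra2 shares 9.84% of the 31-base words of Loxl3 and had group means of 56.8 to 83.8 CPM.

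Loxl2, which crosslinks the collagen IV of basement membranes, rose in all 4 comparisons, by 0.67, 0.70, 0.82 and 0.65 in the same order, each ± 0.16 (adjusted p from 0.000532 to 0.00932). Its libraries spread more widely. In neonatal cells with neonatal supernatant they held 609, 734 and 409 CPM, against 338, 361 and 385 CPM in media, so the lowest of them lay just above media. That lowest library, the third, was the lowest of its group for 8 of the 10 members, all but Loxl3 and Plod3. It also held less of Egln3, an oxygen-sensing prolyl hydroxylase, at 13.3 CPM against 28.8 and 28.6 CPM, and the part of this in the results was not tested. Without it the rise of Loxl2 was 0.89, and without the second library of that group 0.47 (adjusted p = 0.0631). Of the 31-base words of Loxl2 transcripts, 46.4% occur in other genes, chiefly the pseudogene Gm21451. Gm21451 had group means of 13.2 to 44.2 CPM, and with its values added to those of Loxl2 each of these 4 calls was kept.

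Loxl1, which is tied to elastic fibre upkeep in mice, held 396, 359 and 399 CPM in adult cells in media, 645, 597 and 606 CPM with adult supernatant and 493, 505 and 511 CPM with neonatal supernatant. It thus rose more with adult supernatant, by 0.68 ± 0.05 (adjusted p = 1.26e-08), than with neonatal supernatant, by 0.39 ± 0.05 (adjusted p = 3.75e-05). Neonatal cells started higher, at 499, 517 and 510 CPM, and reached 626, 646 and 634 CPM with adult supernatant (0.32 ± 0.05, adjusted p = 9.24e-05). With neonatal supernatant they held 549, 522 and 485 CPM, which overlapped media (0.03, 95% interval -0.08 to 0.14, adjusted p = 0.783; the sign of this estimate turned under trimmed-mean and quantile scaling). The difference of neonatal from adult supernatant was -0.29 ± 0.05 at both ages (adjusted p = 0.000421 and 0.000497).

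Loxl4, with the lowest mean of the 10 in every group, also per kilobase of transcript, followed neither of these. In adult cells it held 36.1, 35.6 and 36.4 CPM in media, 31.6, 34.0 and 38.1 CPM with adult supernatant and 60.1, 48.2 and 64.4 CPM with neonatal supernatant. Neonatal cells held 32.0, 40.6 and 41.7 CPM in media, 56.2, 61.9 and 60.7 CPM with adult supernatant and 91.4, 85.9 and 82.7 CPM with neonatal supernatant. The groups of neonatal cells did not overlap, while in adult cells adult supernatant overlapped media. Its log2 fold change with adult supernatant was -0.06 (95% interval -0.30 to 0.17, adjusted p = 0.651) in adult cells and 0.65 ± 0.11 in neonatal cells (adjusted p = 0.000115). With neonatal supernatant it was 0.67 ± 0.11 (adjusted p = 0.000248) and 1.19 ± 0.11 (adjusted p = 6.77e-07).

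Per kilobase of transcript, Lox made up most of the lysyl oxidase family in every group. Its share of the summed CPM per kilobase (median length of the coding transcripts of GENCODE M21) was 84.2% ± 0.353 (SD, n = 3) in adult cells in media, 76.2% ± 0.591 with adult and 81.4% ± 0.369 with neonatal supernatant. For neonatal cells the shares were 80.2% ± 1.79, 73.2% ± 0.331 and 79.3% ± 0.960. The share of Loxl3 was 4.93% ± 0.338 in adult cells in media and 9.30% ± 0.495 with adult supernatant, and Loxl4 stayed between 0.528 and 1.37% of the family. With the longest transcript in place of the median the share of Lox in adult cells in media was 85.4%. Shares of the lysyl and prolyl hydroxylases depended on the length used, since Plod1 and P4ha2 have short coding transcripts, and no order of level is drawn between them.

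Plod2, whose enzyme hydroxylates telopeptide lysines, set the supernatants apart in the opposite direction to Lox. In adult cells it held 224, 204 and 218 CPM in media, 429, 412 and 405 CPM with adult supernatant and 275, 278 and 281 CPM with neonatal supernatant. The neonatal-cell libraries held 228, 234 and 236 CPM in media, 385, 453 and 416 CPM with adult supernatant and 333, 342 and 241 CPM with neonatal supernatant. At each age the 3 groups did not overlap, although the third library of neonatal cells with neonatal supernatant came close to media. It rose with adult supernatant by 0.95 ± 0.10 in adult cells (adjusted p = 3.49e-07) and by 0.84 ± 0.10 in neonatal cells (adjusted p = 1.81e-06), and with neonatal supernatant by 0.37 ± 0.10 at both ages (adjusted p = 0.00877 and 0.0118). The last of these calls was lost when the first or the second library of that group was left out (adjusted p = 0.0682 and 0.0773), and without the third the rise was 0.54. Neonatal against adult supernatant was -0.58 ± 0.10 in adult cells (adjusted p = 0.000189) and -0.47 ± 0.10 in neonatal cells (adjusted p = 0.00151), where it was -0.31 without library 3 of the neonatal supernatant (adjusted p = 0.00201).

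Plod1, the lysyl hydroxylase of helical lysines, rose by 0.89 ± 0.11 with adult and by 0.85 ± 0.11 with neonatal supernatant in adult cells (adjusted p = 3.27e-06 and 1.85e-05). There it held 234, 282 and 234 CPM in media, 477, 466 and 439 CPM with adult supernatant and 411, 505 and 438 CPM with neonatal supernatant. For neonatal cells the rise was 0.69 ± 0.11 with adult supernatant (adjusted p = 6.28e-05). The values were 294, 338 and 239 CPM with the neonatal one against 235, 222 and 232 CPM in media, and the rise of 0.32 ± 0.11 passed the threshold narrowly (adjusted p = 0.0486). That call was lost under 6 other alternatives, and without any 1 of 5 of the 6 libraries compared (adjusted p up to 0.247). Without the remaining one, the third with supernatant, the rise was 0.46 (adjusted p = 0.00414).

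Plod3, which also carries glycosyltransferase activity, had the smallest rises of the 3 lysyl hydroxylases with adult supernatant. It held 433 to 452 CPM in adult cells in media and 487 to 527 CPM in neonatal cells in media, and 606 to 696 CPM with supernatant over both ages. The log2 fold changes were 0.60, 0.53, 0.43 and 0.33, each ± 0.05 (adjusted p at most 0.000169). Of its 31-base words 12.0% occur in other genes, chiefly Znhit1, which had group means of 23.7 to 36.8 CPM.

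Both catalytic subunits of prolyl 4-hydroxylase rose in each comparison. P4ha2 had the larger changes: 311, 350 and 301 CPM in adult cells in media, 667, 697 and 653 CPM with adult and 649, 620 and 696 CPM with neonatal supernatant. Neonatal cells held 222, 218 and 228 CPM in media, 512, 594 and 563 CPM with adult supernatant and 474, 543 and 311 CPM with neonatal supernatant. All libraries with supernatant lay above media of their age. The log2 fold changes were 1.07, 1.03, 1.32 and 0.95, each ± 0.13 (adjusted p at most 7.36e-05), and without the third library the last was 1.19.

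P4ha1 held 475, 506 and 466 CPM in adult cells in media, 708, 683 and 721 CPM with adult supernatant and 741, 808 and 776 CPM with neonatal supernatant. Neonatal cells held 480.1, 463 and 430 CPM in media, 573, 605 and 585 CPM with adult supernatant and 656, 664 and 584 CPM with neonatal supernatant. Supernatant libraries again lay above all media libraries of their age. Its log2 fold changes were 0.55, 0.68, 0.36 and 0.47, each ± 0.06 (adjusted p at most 7.12e-05). The partner subunit P4hb rose by 0.54, 0.54, 0.21 and 0.23 in the same order, while the third alpha subunit, P4ha3, fell with adult supernatant by 0.95 in adult and 0.89 in neonatal cells and was at -0.05 and -0.14 with neonatal supernatant, not past the threshold.

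Between the supernatants, 4 of the 10 genes differed in adult cells: neonatal supernatant gave more Lox and Loxl4 and less Loxl1 and Plod2 than adult supernatant. In neonatal cells the same 4 genes differed in the same directions, with Plod1 (-0.36, adjusted p = 0.0179) and P4ha2 (-0.37, adjusted p = 0.0465) also lower. Of all genes, 15.1% were called higher and 13.5% lower in adult cells, and 13.7% and 18.7% in neonatal cells. Every library with neonatal supernatant lay above every library with adult supernatant for 21.0% of all genes in adult and 20.5% in neonatal cells. Below them lay 19.7% and 27.2%. Loxl4 was higher by 0.73 ± 0.11 in adult cells (adjusted p = 7.36e-05) and by 0.54 ± 0.11 in neonatal cells (adjusted p = 0.00144). The calls of Plod1 and P4ha2 were lost without the third library of neonatal cells with neonatal supernatant (-0.23, adjusted p = 0.109, and -0.13, adjusted p = 0.251), and also without other single libraries of that pair of groups. That of P4ha2 was lost under 6 other alternatives as well (adjusted p from 0.0570 to 0.150), trimmed-mean scaling and quantile normalization among them. Loxl3, Loxl2, Plod3 and P4ha1 did not pass the threshold at either age, and for Loxl3 the differences were 0.06 (95% interval -0.07 to 0.19) and 0.07 (-0.06 to 0.20). P4ha1 was at 0.14 in adult cells (adjusted p = 0.0894) and 0.11 in neonatal cells (adjusted p = 0.164). It passed the threshold in adult cells under quantile normalization (0.24, adjusted p = 0.00503), and in neonatal cells with array weights (0.14, adjusted p = 0.0351) or without that same library (0.17, adjusted p = 0.0442).

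The collagens that these enzymes act on were mostly lower with adult supernatant, and fewer of them fell with neonatal supernatant. Of 10 fibrillar collagen genes, 7 fell and none rose in adult cells with adult supernatant, and 8 fell and 1 rose in neonatal cells. With neonatal supernatant 4 fell and 1 rose in adult cells, and 6 fell and none rose in neonatal cells. The list medians were -1.19 (adult cells) and -1.25 (neonatal cells) with adult supernatant, against -0.25 and -0.43 with neonatal supernatant. The genes that rose were Col27a1 (0.60) in neonatal cells, named after its value was seen, and Col3a1 in adult cells. Col1a1, the main chain of tendon collagen, held 18805, 19578 and 20332 CPM in adult cells in media, 6134, 6838 and 5856 CPM with adult supernatant and 12724, 12615 and 17165 CPM with neonatal supernatant. For neonatal cells its group means were 20663 ± 1035, 9168 ± 159 and 16326 ± 989 CPM. Its log2 fold changes were -1.64 and -0.48 in adult cells and -1.17 and -0.34 in neonatal cells. Col3a1 fell with adult supernatant (-0.57 and -0.55) and rose with neonatal supernatant in adult cells (0.61); in neonatal cells its value there was 0.01, not past the threshold.

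**Figure D3:**
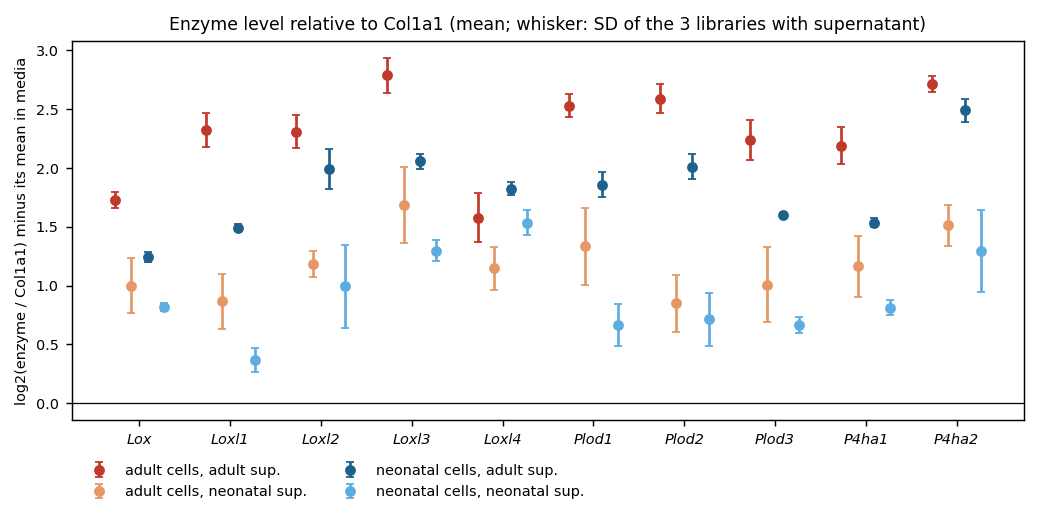
Log2 of each enzyme gene over Col1a1 in the libraries with supernatant, less its mean in media of the same cell age (mean and SD of 3 libraries). All means lie above 0, from 0.37 for Loxl1 in neonatal cells with neonatal supernatant to 2.79 for Loxl3 in adult cells with adult supernatant.

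Relative to Col1a1, every enzyme gene stood higher with supernatant than in media. In adult cells with adult supernatant the ratio to Col1a1 was 2.99 times its media value for Loxl4, 3.31 times for Lox, 6.56 times for P4ha2 and 6.91 times for Loxl3. With neonatal supernatant it was 1.80 times for Plod2, 2.00 times for Lox and 3.22 times for Loxl3. In neonatal cells the range was 2.36 times (Lox) to 5.62 times (P4ha2) with adult supernatant and 1.29 times (Loxl1) to 2.90 times (Loxl4) with neonatal supernatant. The own level of Lox at both ages and of Loxl4 in adult cells was not called with adult supernatant. Nor was that of Loxl1 in neonatal cells with neonatal supernatant. For these the shift came with the lower Col1a1. As Col1a1 was lower in each comparison, a gene of unchanged level also has a ratio above its media value. These ratios were not tested on their own.

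**Figure D4:**
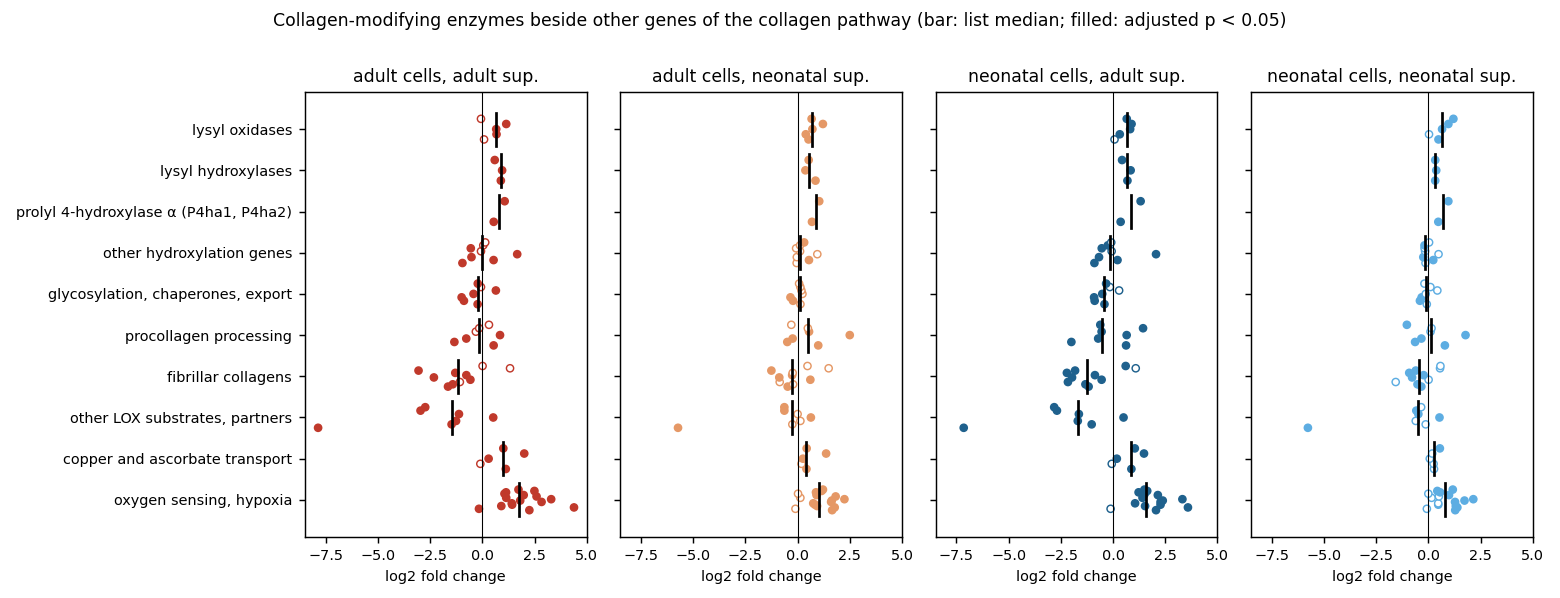
Log2 fold change against media of the enzyme genes (top 3 rows) and of other genes of the collagen pathway, in the 4 comparisons; each point is a gene, filled at an adjusted p under 0.05, and the bar is the median of the list. Points of the enzyme rows lie right of 0 except that of Loxl4 in adult cells with adult supernatant (-0.06), the fibrillar collagens and other lysyl oxidase substrates mostly left of it, and the oxygen-sensing and hypoxia genes farthest right.

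Most other targets and partners of lysyl oxidases fell with adult supernatant, and fewer with neonatal supernatant. Of 7 such genes 6 fell with adult supernatant at each age and 3 with neonatal supernatant, and Efemp2 (fibulin-4, which brings Lox to elastic fibres) was the 1 that rose in each comparison, by 0.50 to 0.63. Eln, the elastin gene, had 72.4 to 94.4 CPM in adult cells in media against 0.127 to 0.662 CPM with adult supernatant and 1.03 to 2.16 CPM with neonatal supernatant. Neonatal cells held 35.2 to 48.5 CPM in media, 0.127 to 0.465 CPM with adult and 0.451 to 1.26 CPM with neonatal supernatant. The lowest value of the table, in all libraries, is 0.127 CPM. The fitted changes were -5.73 to -7.86. With adult supernatant they rest on values at or near that lowest value, and with neonatal supernatant on low values above it. Postn (periostin) and Fmod (fibromodulin, a small proteoglycan of tendon) fell with adult supernatant by 2.96 and 2.73 in adult cells and by 2.69 and 2.82 in neonatal cells.

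The rest of the hydroxylation machinery moved in both directions. Of 8 other genes of collagen hydroxylation, 2 rose and 3 fell in adult cells and 2 rose and 4 fell in neonatal cells with adult supernatant; with neonatal supernatant 2 rose and none fell in adult cells, and 1 rose and 2 fell in neonatal cells. Leprel1 (P3h2), named after its value was seen, rose by 1.67 and 2.06 with adult supernatant. Lepre1 (P3h1, the prolyl 3-hydroxylase) fell with adult supernatant by 0.52 and 0.67, and its complex partner Crtap by 0.25 in neonatal cells. Of 7 genes for collagen glycosylation, chaperones and export, 5 fell with adult supernatant at each age and 2 with neonatal supernatant. Serpinh1 (HSP47, the collagen chaperone) fell by 0.88 and 0.22 in adult cells with adult and neonatal supernatant, and by 0.88 and 0.41 in neonatal cells. Fkbp10, a prolyl isomerase that assists lysyl hydroxylation by Plod2, fell by 0.99, 0.35, 0.91 and 0.33 in the order used above, opposite in sign to Plod2. Of 7 genes of procollagen processing, 2 rose and 2 fell in adult cells and 3 rose and 4 fell in neonatal cells with adult supernatant; with neonatal supernatant 3 rose and 2 fell in adult cells, and 2 rose and 3 fell in neonatal cells. Bmp1, the protease that removes the C-propeptide and also activates Lox, rose in each comparison by 0.54, 0.98, 0.62 and 0.79. Pcolce, which enhances that cleavage, fell with adult supernatant by 0.77 and 0.71, and Tll1, a protease related to Bmp1, by 1.34 and 2.00.

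Genes of oxygen sensing and of the response to hypoxia, a state known to raise P4ha1, P4ha2, Plod2 and Lox in many cells, rose beside the enzymes. Of 16 listed genes, 15 rose and 1 fell (Egln2, -0.16, named after its value was seen) in adult cells with adult supernatant, 15 rose in neonatal cells, and 13 and 11 rose with neonatal supernatant. The list medians were 1.77 (adult cells) and 1.58 (neonatal cells) with adult supernatant, against 1.04 and 0.77 with neonatal supernatant. Egln3 had the steepest rises of the list with adult supernatant, from 4.36 to 5.38 CPM in adult cells in media to 88.5 to 110.1 CPM, and from 6.91 to 10.4 CPM in neonatal cells to 91.2 to 112.6 CPM. Neonatal supernatant left it at 15.5 to 16.5 CPM in adult and 13.3 to 28.8 CPM in neonatal cells. Bnip3, a mitophagy gene, rose by 3.30, 2.24, 3.32 and 2.15. Genes that supply copper and ascorbate rose as well, 4 of 5 in each comparison but the last, where 1 did, and Slc23a2, an ascorbate transporter, rose in all 4, by 1.01, 0.43, 1.04 and 0.55. The TGF-beta list, a pathway that raises collagen and Lox in fibroblasts, held no gene that rose, with 4, 3, 5 and 4 of 6 lower. Whether any of these genes bears on the 10 enzymes was not tested.

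Neonatal cells differed from adult cells in several enzyme genes, and most of those were lower. In media 2 of the 10 were higher and 3 lower in neonatal cells (16.7% and 12.0% of all genes), with adult supernatant 1 higher and 4 lower (14.7% and 5.86%), and with neonatal supernatant 1 higher and 6 lower (17.5% and 12.3%). Without the third library of neonatal cells with neonatal supernatant the last count was 2 higher and 5 lower, as Plod2 was then called higher (0.28, adjusted p = 0.00351, against 0.12 and 0.383 with it) and Loxl2 was not called. In media, macrophage and endothelial markers were also lower in neonatal cells, as given above, and their part in these differences was not tested. Lox was lower in each condition, at -0.39, -0.41 and -0.43, each ± 0.07 (adjusted p = 0.000381, 0.000409 and 0.000163), and its libraries of the ages did not overlap in any condition. Of all genes, 18.7% (media), 12.3% (adult supernatant) and 19.4% (neonatal supernatant) had every neonatal-cell library below every adult-cell one. In the same order 23.8%, 24.6% and 23.9% had them all above. Loxl1 was higher in neonatal cells in media, by 0.40 ± 0.05 (adjusted p = 3.31e-05), and at 0.05 and 0.04 with adult and neonatal supernatant, not past the threshold. P4ha2 was lower in media, at -0.52 ± 0.13 (adjusted p = 0.00764), and with neonatal supernatant, at -0.60 ± 0.13 (adjusted p = 0.00275), or -0.37 without that library (adjusted p = 0.00294). With adult supernatant it was at -0.27 (adjusted p = 0.176), and past the threshold when only the compared groups were used (adjusted p = 0.0196). The value in media was -0.46 (adjusted p = 0.0829) without the second adult-cell and the first neonatal-cell media library, which stood apart in interferon genes.

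Some genes were called between the ages only in some conditions. Loxl3 (-0.36 and -0.35, each ± 0.06) and P4ha1 (-0.26 and -0.29, each ± 0.06) were lower in neonatal cells with adult and with neonatal supernatant, while in media they were at -0.10 and -0.08, not past the threshold. Without the third neonatal-cell media library Loxl3 was at -0.17 in media (adjusted p = 0.0484). That their age difference changed with supernatant was not called for either gene (interaction adjusted p = 0.113 and 0.196 for Loxl3, 0.247 and 0.256 for P4ha1). Plod1 was lower, at -0.65 ± 0.11 with neonatal supernatant (adjusted p = 0.000297). With adult supernatant it was lower, at -0.32 (adjusted p = 0.0493), a call that was lost when any 1 of the 6 libraries was left out (adjusted p from 0.0633 to 0.205). Loxl4 was higher in neonatal cells by 0.79 ± 0.11 with adult and 0.60 ± 0.11 with neonatal supernatant (adjusted p = 7.62e-05 and 0.000623). Loxl2 was lower in media (-0.45 ± 0.16, adjusted p = 0.0475) and with neonatal supernatant (-0.50 ± 0.16, adjusted p = 0.0283). The first of these calls was lost when any 1 of the 6 media libraries was left out (adjusted p from 0.0521 to 0.135), and the second without the third neonatal-cell library (-0.27, adjusted p = 0.160) or adult-cell library 2 or 3 (adjusted p = 0.0602 and 0.115). Plod3 was higher in media by 0.17 ± 0.05 (adjusted p = 0.0154), a call lost under trimmed-mean scaling (0.15, adjusted p = 0.0640), quantile normalization (0.11, adjusted p = 0.122) and without the first media library of either age (adjusted p = 0.0578 and 0.0810).

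**Figure D5:**
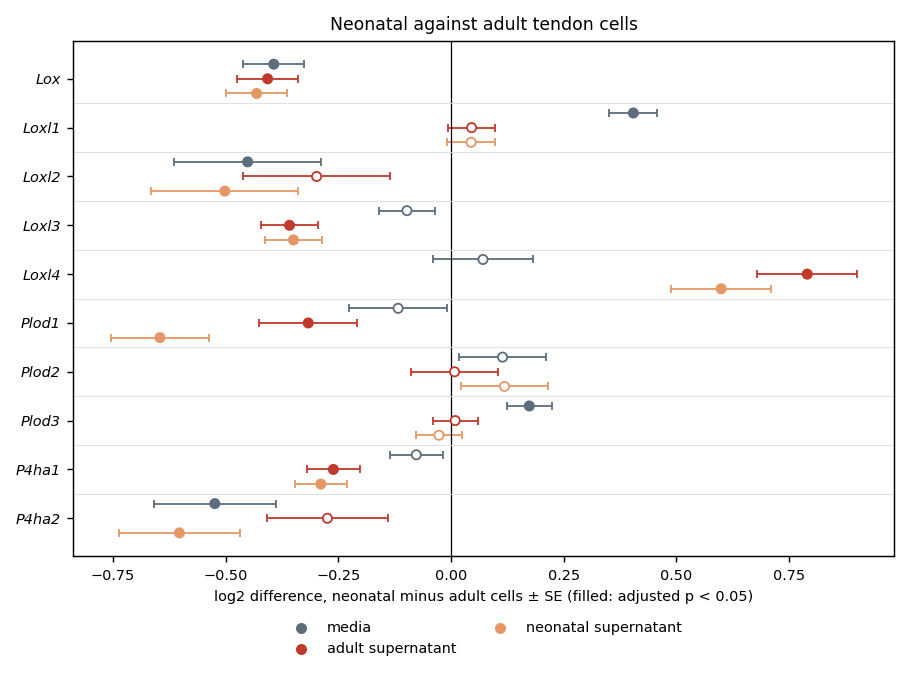
Log2 difference of each enzyme gene between neonatal and adult cells in media and with each supernatant, with its standard error (whisker); filled points have an adjusted p under 0.05. Lox lies left of 0 in all 3 conditions and Loxl4 right of 0 with both supernatants.

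Whether the response itself differed between the ages was tested as an interaction. With adult supernatant 1 of the 10 genes rose more in neonatal cells and 1 rose less (3.00% and 1.55% of all genes were called in these directions). Loxl4 responded by 0.72 ± 0.16 more in neonatal cells (adjusted p = 0.0142) and Loxl1 less, at -0.36 ± 0.07 (adjusted p = 0.0111). The Loxl1 call was lost under quantile normalization (-0.27, adjusted p = 0.0507). With neonatal supernatant Loxl1 alone was called, at -0.36 ± 0.07 (adjusted p = 0.0334), where 0.361% of all genes were called in that direction and 0.493% in the other. That call was lost under 5 other alternatives and without any 1 of 8 of the 12 libraries involved (adjusted p from 0.0544 to 0.0820). The second adult-cell and the first neonatal-cell media library held more of the type I interferon genes (8 genes summed to 199 and 282 CPM, against 19.9 to 66.3 CPM in the other media libraries), and without both the interaction of Loxl4 was 0.61 (adjusted p = 0.0557). For Lox the interactions were -0.01 (95% interval -0.22 to 0.19) and -0.04 (-0.24 to 0.17).

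Among themselves the members fell along a few patterns over the 18 libraries, given here as Pearson correlations of log2 CPM without a test, since libraries of a group share their treatment. Loxl2, Plod1, P4ha2, P4ha1 and Loxl3 ran together, with r from 0.827 to 0.959. Plod3 had r of 0.659 to 0.883 with these 5, and of 0.826 with Loxl1 and 0.832 with Plod2. Between Loxl1 and Plod2 r was 0.897, and with Lox they had r of -0.186 and -0.011. Loxl4 had r of at most 0.449 with any other member. Over 9130 genes of sufficient level, the gene most like Plod2 was Egln3 (r = 0.985), and the next was Map2k1 (0.978). For Loxl3 it was Tfpi2 (0.987), for P4ha2 Sod3 (0.984), for Plod3 Aif1l (0.979), for P4ha1 Aqp1 (0.969), and for Loxl1 Gtf2e2 (0.960). For Plod1 it was Hivep3 (0.959), for Loxl4 Dlat (0.935) and for Lox Snx1 (0.924). For Loxl2 it was a fellow member, P4ha2 (0.959).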

How the data were processed

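RNA-seq of polyadenylated RNA was made from 18 samples (NEBNext Ultra II libraries, per the labels' protocols). Per the submitters' processing notes, the authors used kallisto (version not given in the sources used here), GRCm39 and limma 3.56.2. The authors deposited log2 CPM, without counts or depths, as 1 table of 14391 genes with at least 1 CPM in at least 3 libraries. CPM summed to 999134 to 1001152 per library, and no column was left unused. Groups follow the labels. All libraries carry the same batch label. A linear model with 6 group means was run on all deposited log2 values (limma 3.58.1, R 4.3.3, moderated variances with trend, two-sided). It had 12 residual degrees of freedom, and the prior added 4.59. The threshold was 0.05 for p-values adjusted by Benjamini-Hochberg over all genes. The fit was tested on simulated data. There 1.12 to 11.36% of the calls were false, the most for the ages with neonatal supernatant. A log2 change of 0.5 was recovered for 18.7% (interaction with neonatal supernatant) to 45.3% (ages with adult supernatant) of the changed genes. In the simulation many changes of that size were thus missed. It changed far fewer genes than were called in the comparisons with media, so these rates need not hold there. The members and gene lists were chosen with earlier results of these data known. All 10 members were named; of other lists, at most 4 called genes with the smallest p per comparison, Col1a1, Col1a2, Col3a1, P4hb, Serpinh1, Eln and Egln3; and the 3 genes most like each member. P4ha3 with neonatal supernatant, Efemp2 with adult supernatant, the genes sharing sequence and the genes marked so in the text were named beyond this rule. Lepre1 is the row name of P3h1. Shared sequence and lengths were read from GENCODE M21 (GRCm38). Raw reads were not analysed here.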

Additional observations from a re-analysis of the deposited data

Results flagged for a closer look

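The response of Loxl1 to adult supernatant differed between cell ages by -0.36 on the log2 scale, neonatal minus adult cells, by the interaction test (0.68 in adult and 0.32 in neonatal cells, 3 libraries each). Its response to neonatal supernatant differed by -0.36 as well, 0.39 against 0.03. Both differences use the media libraries, where Loxl1 was already higher in neonatal cells. The response of Loxl4 to adult supernatant differed by 0.72, from -0.06 in adult to 0.65 in neonatal cells.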

How the results depend on the processing

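Over the 10 genes and 11 comparisons, leaving out 1 library kept the call and direction in 711 of the single-gene values, ended a call in 40, made one in 3 and turned the sign of an uncalled value in 26; the other alternatives gave 1056, 35, 5 and 15. Counts of called enzyme genes stayed within 1.5 times except in 3 comparisons. For the interaction with neonatal supernatant the count was 0 under trimmed-mean scaling, quantile normalization, no trend, only the compared groups and without the pair of media libraries rich in interferon genes (here both media libraries), and 0 to 1 when 1 library was left out. For the interaction with adult supernatant it was 1 under quantile normalization and without both media libraries. For neonatal against adult cells in media it was 2 without both media libraries and 3 to 5 when 1 was left out. With the longest transcript the family shares in media were 85.4% for Lox (adult cells), 49.9% and 53.2% for Plod3, and 45.7% and 53.5% for P4ha1 (adult and neonatal cells). The signs that turned, none of them called, were as follows. Trimmed-mean scaling gave -0.00306 for Loxl1 in neonatal cells with neonatal supernatant, -0.0358, -0.0737 and -0.0722 for Loxl1, Plod2 and Plod3 between ages with adult supernatant, and -0.00316 for the Plod2 interaction with neonatal supernatant. Quantile normalization gave -0.0220 for Loxl1 in neonatal cells with neonatal supernatant, and 0.0333, 0.0131 and 0.0489 for Plod1, Plod3 and P4ha2 between supernatants in adult cells. Array weights gave -0.0156 for Loxl2 between supernatants in adult cells, -0.00870 and -0.0125 for Plod2 and Plod3 between ages with adult supernatant, and 0.0782 and 0.0387 for the interactions of Loxl2 and P4ha2 with neonatal supernatant. Without both media libraries the Lox interaction with adult supernatant was 0.0192. When 1 library was left out, ranges that crossed 0 were -0.0866 to 0.167 (Plod2), -0.236 to 0.186 (Loxl2), -0.105 to 0.00404 (Lox) and -0.246 to 0.157 (P4ha2) for the interaction with neonatal supernatant, and -0.0685 to 0.0187 for Lox with adult supernatant. Between ages with adult supernatant they were -0.0265 to 0.0362 (Plod3) and -0.0516 to 0.0655 (Plod2). Between supernatants in adult cells they were -0.0775 to 0.130 (Loxl2), -0.118 to 0.0302 (Plod1) and -0.0838 to 0.00057 (P4ha2), in neonatal cells -0.351 to 0.0707 (Loxl2), and for Loxl1 in neonatal cells with neonatal supernatant -0.0146 to 0.0752. The cause was not tested. The number of all genes called moved by over 1.5 times for the interaction with neonatal supernatant (123, and 29 without trend, 209 with array weights, 39 with only the compared groups, 59 without both media libraries, 33 to 228 when 1 library was left out, lowest without the second and highest without the third library of adult cells with neonatal supernatant) and with adult supernatant (655, and 1242 with array weights, 360 without both media libraries, 406 and 418 without the first adult-cell or the third neonatal-cell library with adult supernatant, 434 without the second neonatal-cell media library), and for the ages in media (4122, and 2322 without both). Trimmed-mean scaling moved the share of higher among called genes from 71.5 to 52.5% between ages with adult supernatant and from 66 to 52.6% in the interaction. With adult supernatant, quantile normalization moved the all-gene median from 0.03 to -0.10 in adult and from 0.07 to -0.11 in neonatal cells. Libraries with the same replicate number deviated together no more than others. Their correlations ran from -0.21 to 0.232 (median -0.005, 45 pairs), against -0.333 to 0.259 (median 0.003, 90 pairs) for different numbers. Such correlations cannot show whether same-numbered libraries share an origin, which is not stated. A fit with the replicate block gave the same counts of enzyme genes, 8, 10, 9 and 9 against media. Depth limits are unknown without counts.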
